A study of Homo sapiens with 23 samples.

Results

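A set of 8 genes has 9 probe sets of the 54675 on the arrays, and these were followed through all 8 groups of a study of polymer transfection. Textbook expression of most of these genes belongs to testis, striated muscle, bladder, oviduct, liver, kidney or brain. No tissue is named here for DCAF4L1 or LSMEM1. The cells were HEK293T, a line of human embryonic kidney origin with the SV40 large T antigen. Kidney is also a site of ALDH8A1, so this gene is not foreign to the tissue of origin. The 8 genes are DCAF4L1, GCNA, LSMEM1, ITGB1BP2, SNX31, OVGP1, ALDH8A1 and GPR83, taken by symbol from the authors' deposited tables, where GCNA and LSMEM1 stand under the older symbols ACRC and C7orf53. The genes were chosen by their log2 expression in the GFP-positive cells of 8 h and 16 h, which was above that of the GFP-negative cells, so the differences at those times describe the choice and carry no test. LSMEM1 has 2 probe sets and each other gene 1, and the single SNX31 probe set is of the _x_at kind, which can also bind transcripts of other genes.

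Cells received polyplexes, which are particles of branched polyethylenimine and the plasmid pEGFP-LUC with reporters for green fluorescent protein (GFP) and luciferase. At 2 h, treated cells (3 arrays) were set against untreated cells (2 arrays). At 8 h, 16 h and 24 h, GFP-positive cells (3 arrays per time) and GFP-negative cells (3 arrays per time) were separated by flow cytometry from treated cultures, so both sorted populations had met the polyplexes. The sample titles number the arrays as biological replicates. All cells are of 1 line, and the labels do not say which of the 3 days named in the design an array comes from. The p-values thus measure only the spread between these arrays, and how independent the cultures were is not stated. One GFP-positive array of 8 h, replicate 3, has a source name that gives 16 h; it stays with the 8 h group, where its title places it. The 24 h arrays are given as labelled, although the authors' deposited 24 h group means equalled the means of the labelled arrays for 0 of 54675 probe sets (tolerance 1e-06), against 54675 at each of the other times.

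The 8 genes share no pathway. DCAF4L1 is a paralogue of DCAF4, a WD-repeat receptor that brings substrates to CUL4 ubiquitin ligases. GCNA is a germ cell protein with a SprT-like protease domain that acts on proteins crosslinked to DNA, and LSMEM1 is a small single-pass membrane protein of unknown role. ITGB1BP2, or melusin, is a muscle chaperone that binds the tail of the beta1 integrin, and SNX31 is a sorting nexin of the FERM subfamily, known from bladder urothelium. OVGP1 is the secreted oviductal glycoprotein of the chitinase-like family, ALDH8A1 is an aldehyde dehydrogenase of the kynurenine pathway in liver and kidney, and GPR83 is a G protein-coupled receptor of brain and regulatory T cells that binds the proSAAS peptide PEN.

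Values are log2 expression. Each time was normalized apart, so groups were compared only within a time. The files hold no detection calls, so whether a gene was on or off cannot be read from them, and the probe set's percentile among all probe sets of the same array is given as its starting level. In untreated cells at 2 h, OVGP1 lay at percentile 66.4 to 67.2, ITGB1BP2 at 54.8 to 55.0, GCNA at 51.1 to 57.3, ALDH8A1 at 49.6 to 52.5 and the LSMEM1 probe sets at 43.4 to 55.1. DCAF4L1 lay lower, at 29.7 to 35.4, GPR83 at 19.8 on both arrays and SNX31 at 5.05 to 5.44. Low percentiles of the untreated arrays were thus found for SNX31 and GPR83, whereas the OVGP1 probe set was already above the middle of the array. A mean over sorted cells cannot tell fewer cells with a transcript from less of it per cell.

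Promoter sequences were read for base content and short motifs. RefSeq windows of 300 bases (build GRCh38.p14) ran from 250 bases before to 50 after the start. They were held for 5 of the 8 genes (GCNA, GPR83, ALDH8A1, ITGB1BP2 and LSMEM1). Those of GCNA, which had the largest 8 h difference, and of GPR83 and ALDH8A1 are shown. Capitals mark TATAAA and CCAAT on either strand (reverse TTTATA and ATTGG).
GCNA promoter, chrX:71578187-71578486, plus strand: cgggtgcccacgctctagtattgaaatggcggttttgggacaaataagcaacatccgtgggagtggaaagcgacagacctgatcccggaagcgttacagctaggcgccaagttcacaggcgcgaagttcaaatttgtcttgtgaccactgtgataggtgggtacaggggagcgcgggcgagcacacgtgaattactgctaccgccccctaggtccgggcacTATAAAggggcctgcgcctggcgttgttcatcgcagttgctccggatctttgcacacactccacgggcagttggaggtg
GPR83 promoter, chr11:94401370-94401669, minus strand: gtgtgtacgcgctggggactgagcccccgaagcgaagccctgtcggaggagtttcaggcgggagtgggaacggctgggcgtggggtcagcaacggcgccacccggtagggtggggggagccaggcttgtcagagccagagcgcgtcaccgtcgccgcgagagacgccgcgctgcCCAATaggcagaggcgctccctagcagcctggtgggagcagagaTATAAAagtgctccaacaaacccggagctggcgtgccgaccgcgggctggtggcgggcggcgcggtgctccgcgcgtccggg
ALDH8A1 promoter, chr6:134950052-134950351, minus strand: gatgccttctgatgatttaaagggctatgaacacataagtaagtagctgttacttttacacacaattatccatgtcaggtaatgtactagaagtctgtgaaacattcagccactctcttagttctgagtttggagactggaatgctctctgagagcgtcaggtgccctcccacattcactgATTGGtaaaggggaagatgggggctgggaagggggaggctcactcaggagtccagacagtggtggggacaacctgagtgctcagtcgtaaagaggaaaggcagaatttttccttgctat

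TATAAA began 29 bases before the start in GCNA and 32 before it in GPR83, and it also stood in 1 of the 2 LSMEM1 windows, on the reverse strand. Of all 35116 such windows, 11.5% hold TATAAA and 34.6% hold CCAAT on either strand. CCAAT was in the windows of GPR83, ALDH8A1, ITGB1BP2 and in 1 of LSMEM1. GC content was 70.3% in GPR83, 57.0% in GCNA, 48.3% in ITGB1BP2, 46.7% in ALDH8A1 and 44.0% and 47.3% in the LSMEM1 windows. Among all windows these shares lay between percentile 18.8 (1 LSMEM1 window) and 80.5 (GPR83). GPR83 had 34 CpG dinucleotides in its window and GCNA 21, against 2 in ALDH8A1. Of the other motifs searched on both strands, GGGCGG (in 45% of all windows) was in GCNA and GPR83, CACGTG (7.26%) in GCNA, and TGANNTCA (11.5%) in ITGB1BP2 and, as the same copy, in both LSMEM1 windows. TGACGTCA (1.85%), TGACTCA (4.95%), TGATGNAA (3.62%) and GAANNTTC (6.77%) were in none of the 6 windows, and none of the 9 motifs was shared by all 5 genes. Each motif searched is in at most 45% of all windows. The lack of a shared one therefore does not set these genes apart from others.

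Of the ubiquitin and protease group, GCNA had the largest differences of the 9 probe sets. At 8 h its log2 expression was 7.48, 7.63 and 7.49 in GFP-positive cells, against 5.30, 4.14 and 4.82 in GFP-negative cells. At 16 h it was 7.40, 7.63 and 8.32 in GFP-positive cells, against 5.37, 5.24 and 5.43 in GFP-negative cells. No array of one population overlapped the other at either time, and the means differed by 2.78 log2 units at 8 h (6.88-fold) and by 2.44 at 16 h (5.42-fold). Of all 54675 probe sets, GCNA ranked 5th from the largest difference at 8 h and 8th at 16 h, and its percentile was 82.4 to 83.9 in GFP-positive cells at 8 h, against 40.9 to 59.3 in GFP-negative cells.

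DCAF4L1, the paralogue of the CUL4 receptor, had log2 values of 6.15, 6.36 and 6.61 in GFP-positive cells at 8 h, against 4.08, 4.0 and 4.79 in GFP-negative cells, a difference of 2.09 (4.25-fold). At 16 h the values were 5.0, 5.39 and 6.54 in GFP-positive cells, against 4.43, 4.18 and 3.79 in GFP-negative cells, a difference of 1.51 (2.85-fold). The populations stayed apart at both times, but the GFP-positive arrays of 16 h spread widely, with replicate 3 on top. Without that array the 16 h difference was 1.06.

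LSMEM1, the membrane protein of unknown role, can be read on 2 probe sets that moved the same way. On 239203_at its log2 values at 8 h were 6.40, 7.20 and 7.11 in GFP-positive cells, against 4.95, 5.15 and 5.06 in GFP-negative cells. At 16 h they were 6.72, 6.72 and 7.65 in GFP-positive cells, against 5.15, 5.31 and 5.09 in GFP-negative cells. The groups did not overlap, and the difference was 1.85 log2 units at either time (3.61-fold at 8 h and 3.60-fold at 16 h). The dimmer 1569852_at had 4.61, 5.16 and 4.94 in GFP-positive cells at 8 h, against 4.20, 4.14 and 3.96 in GFP-negative cells. At 16 h it had 5.09, 5.67 and 6.07 in GFP-positive cells, against 4.39, 4.25 and 4.42 in GFP-negative cells. Its differences of 0.81 at 8 h and 1.26 at 16 h were smaller than those of 239203_at, and again no array crossed over.

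ITGB1BP2, the muscle chaperone melusin, stood apart mainly at 8 h. Its log2 values there were 5.48, 5.21 and 5.53 in GFP-positive cells, against 4.43, 4.79 and 4.54 in GFP-negative cells, a difference of 0.83 (1.77-fold). At 16 h they were 5.40, 5.38 and 5.47 in GFP-positive cells, against 5.31, 5.12 and 5.22 in GFP-negative cells, a difference of 0.20 (1.15-fold). The groups were still apart at 16 h, though by only 0.08 log2 units between the lowest GFP-positive and the highest GFP-negative array.

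SNX31, the urothelial sorting nexin, had log2 values of 3.32, 3.79 and 2.94 in GFP-positive cells at 8 h, against 2.14, 2.29 and 2.26 in GFP-negative cells. At 16 h the values were 3.20, 2.92 and 3.33 in GFP-positive cells, against 2.80, 2.95 and 2.94 in GFP-negative cells. The means differed by 1.12 log2 units at 8 h and 0.25 at 16 h, and no fold is given because the GFP-negative values lie at the bottom of the array. This was the member whose groups overlapped at 16 h. Even the GFP-positive arrays of 8 h reached no further than percentile 34.3, and the GFP-negative arrays of 8 h lay at percentile 3.22 to 5.55.

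OVGP1, the oviductal glycoprotein, was the brightest probe set of the 9 in untreated cells relative to its arrays. Its log2 values at 8 h were 7.42, 7.19 and 7.11 in GFP-positive cells, against 6.39, 6.23 and 6.32 in GFP-negative cells, a difference of 0.92 (1.90-fold). At 16 h they were 7.29, 7.70 and 8.12 in GFP-positive cells, against 6.77, 6.95 and 6.87 in GFP-negative cells, a difference of 0.84 (1.79-fold). The populations did not overlap at either time.

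ALDH8A1, the kynurenine pathway dehydrogenase, had log2 values of 6.55, 6.53 and 6.70 in GFP-positive cells at 8 h, against 5.63, 5.11 and 5.76 in GFP-negative cells, a difference of 1.09 (2.13-fold). At 16 h it had 5.99, 6.45 and 7.04 in GFP-positive cells, against 5.19, 5.10 and 5.46 in GFP-negative cells, a difference of 1.24 (2.37-fold). All GFP-positive arrays lay above all GFP-negative arrays at both times.

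GPR83, the receptor of the peptide PEN, started low, with log2 values at 8 h of 3.61, 3.85 and 3.87 in GFP-positive cells, against 3.00, 2.78 and 3.30 in GFP-negative cells, a difference of 0.75 (1.68-fold). At 16 h the values were 3.97, 4.46 and 4.96 in GFP-positive cells, against 3.49, 3.35 and 3.41 in GFP-negative cells, a difference of 1.04 (2.06-fold). The groups were apart at both times, and the GFP-positive arrays of 16 h, at percentile 31.1 to 48.1, remained below the middle of the array.

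**Figure D1:**
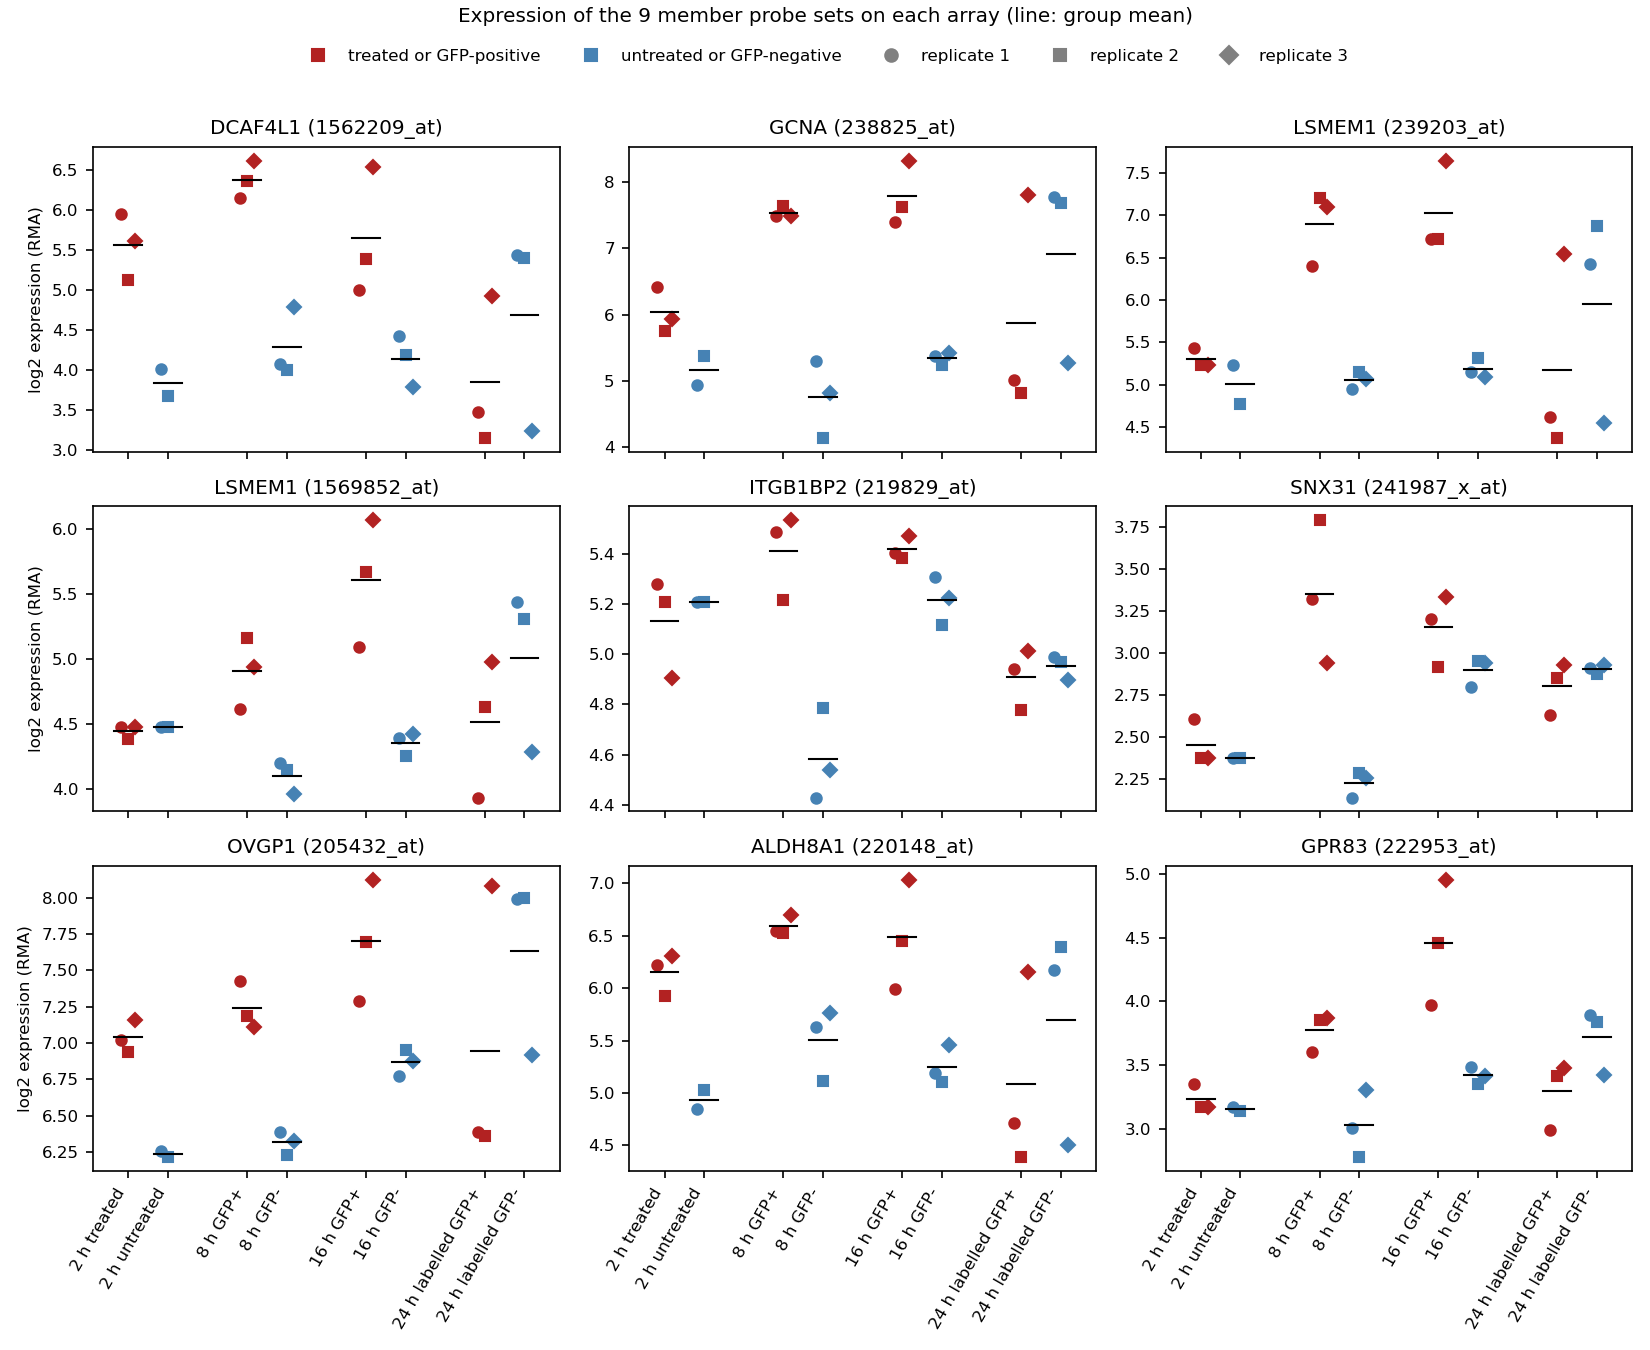
Log2 expression (vertical axis) of the 9 probe sets on each of the 23 arrays, by group along the horizontal axis; points are arrays, shaped by replicate, and lines are group means. At 8 h every GFP-positive array lies above every GFP-negative array, at 16 h this holds for 8 of 9 probe sets (not SNX31), and at 24 h the labelled groups overlap for all 9.

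In all, the GFP-positive and GFP-negative arrays did not overlap for 9 of 9 probe sets at 8 h, where 10.8% of all probe sets lay wholly above, and for 8 of 9 at 16 h, where 8.06% did; both counts come from the contrasts that chose the genes. The median difference of the 9 probe sets was 1.09 log2 units at 8 h, beside 0.0042 over all probe sets, and 1.24 at 16 h, beside -0.0438. These medians come from the same contrasts, so their direction was fixed by the choice of genes. From 8 h to 16 h the difference changed most for SNX31 (-0.87 log2 units), ITGB1BP2 (-0.62) and DCAF4L1 (-0.58). The largest change upward was that of the 1569852_at probe set of LSMEM1 (0.45). On the GFP-positive arrays of 16 h, replicate 3 was the highest for 9 of 9 probe sets, and it was the highest for 41.9% of all probe sets. The arrays hold 2 RNA quality measures. GAPDH 3' minus 5' signal was 0.129 to 0.187 log2 units in that group, against 0.0351 to 0.226 in GFP-negative cells of 16 h. ACTB 3' minus 5' signal was 1.07 to 1.67, against 0.854 to 1.80. Replicate 3 was the lowest of its group in GAPDH (0.129) and the highest in ACTB (1.67). The part of these measures in the differences was not tested.

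**Figure D2:**
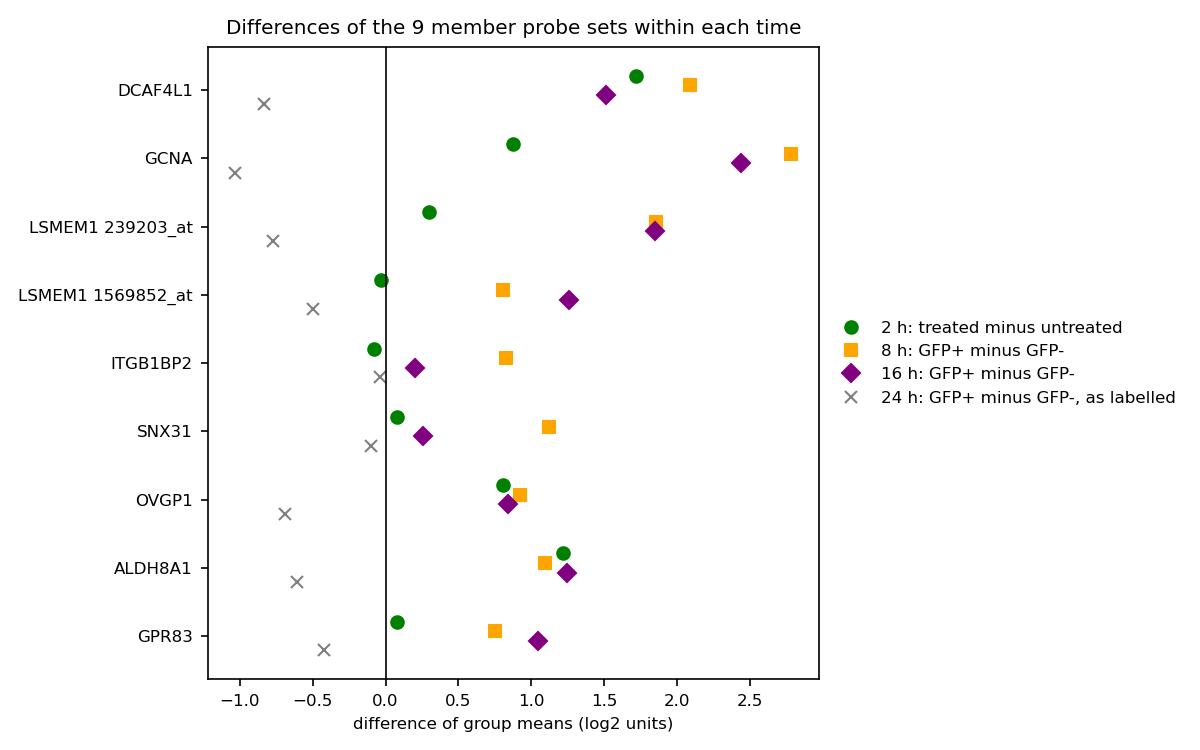
Difference of group means in log2 units (horizontal axis) for each of the 9 probe sets (rows), with a marker for each time. GCNA has the largest differences at 8 h (2.78) and 16 h (2.44), DCAF4L1, ALDH8A1, GCNA and OVGP1 lie farthest right at 2 h, and at 24 h as labelled all 9 lie left of 0.

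The 2 h comparison asked whether the genes already differed between treated and untreated cells. Its arrays had no part in the choice of genes, though some 2 h values were known beforehand, that of DCAF4L1 among them. ALDH8A1, DCAF4L1 and OVGP1 rose in treated cells in a limma fit over all probe sets (Benjamini-Hochberg adjusted p under 0.05), while the other 6 probe sets did not pass. ALDH8A1 had log2 values of 6.22, 5.93 and 6.31 in treated cells, against 4.85 and 5.03 in untreated cells, a difference of 1.22 (SE 0.23, limma adjusted p = 0.0241). DCAF4L1 had 5.95, 5.12 and 5.61 in treated cells, against 4.01 and 3.67 in untreated cells, a difference of 1.72 (SE 0.35, limma adjusted p = 0.0348), which ranked 3rd of all probe sets. OVGP1 had 7.02, 6.94 and 7.16 in treated cells, against 6.26 and 6.21 in untreated cells, a difference of 0.80 (SE 0.17, limma adjusted p = 0.0377). In these 3 genes no treated array fell among the untreated ones.

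GCNA had 6.42, 5.75 and 5.94 in treated cells at 2 h, against 4.94 and 5.38 in untreated cells; its difference of 0.87 (SE 0.28) did not pass (limma adjusted p = 0.227), although the arrays did not overlap. LSMEM1 on 239203_at had 5.44, 5.23 and 5.23 in treated cells, against 5.23 and 4.77 in untreated cells, and GPR83 had 3.35, 3.17 and 3.17 in treated cells, against 3.17 and 3.14 in untreated cells. The differences of LSMEM1 (0.30 on 239203_at and -0.03 on 1569852_at), ITGB1BP2 (-0.08), SNX31 (0.08) and GPR83 (0.08) had adjusted p-values of 0.83 or more. Exactly equal deposited values on both untreated arrays were found for 3 of the 9 probe sets (ITGB1BP2, SNX31 and LSMEM1 on 1569852_at) and 9412 of 54675 in all, so the untreated spread of those probe sets is not measured.

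Thus 3 of 9 probe sets passed as higher and 0 as lower at 2 h, beside 0.212% of all probe sets higher and 0.333% lower, and 4 of 9 lay wholly above the untreated arrays, beside 9.56%. The 2 h calls rest on few arrays. None of the 3 passed with all 23 arrays in 1 fit, with the 2 h arrays alone, or without treated replicate 1, treated replicate 3, untreated replicate 1 or untreated replicate 2; without treated replicate 2, 2 passed. The differences themselves ranged from 1.52 to 1.94 for DCAF4L1, from 1.13 to 1.33 for ALDH8A1 and from 0.74 to 0.85 for OVGP1 with any 1 array left out. ACTB 3' minus 5' signal was 1.28 to 2.68 log2 units in treated cells, against 1.23 to 1.44 in untreated cells, highest in treated replicate 1. GAPDH 3' minus 5' signal was 0.292 to 0.333 in treated cells, against 0.327 to 0.371 in untreated cells, lowest in treated replicate 1. The part of these measures was not tested.

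At 24 h the arrays as labelled gave no call for any of the 9 probe sets, nor for any of all 54675 (0.0%) in limma; at an unadjusted p under 0.05 there were 1520, and array weights and the other settings also gave 0 adjusted calls. GCNA had log2 values of 5.01, 4.81 and 7.81 in labelled GFP-positive cells, against 7.77, 7.68 and 5.28 in labelled GFP-negative cells. DCAF4L1 had 3.48, 3.15 and 4.93 in labelled GFP-positive cells, against 5.44, 5.40 and 3.24 in labelled GFP-negative cells. In both genes GFP-positive replicates 1 and 2 and GFP-negative replicate 3 were low, and the other 3 arrays were high.

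The same arrays were low and high for LSMEM1 on 239203_at, with 4.61, 4.37 and 6.54 in labelled GFP-positive cells, against 6.42, 6.87 and 4.55 in labelled GFP-negative cells. OVGP1 had 6.39, 6.36 and 8.08 in labelled GFP-positive cells, against 7.99, 7.99 and 6.92 in labelled GFP-negative cells. ALDH8A1 had 4.72, 4.39 and 6.16 in labelled GFP-positive cells, against 6.17, 6.40 and 4.51 in labelled GFP-negative cells. These 3 genes thus repeat the order of GCNA and DCAF4L1. LSMEM1 on 1569852_at had 3.93, 4.63 and 4.98 in labelled GFP-positive cells, against 5.44, 5.31 and 4.28 in labelled GFP-negative cells, and GPR83 had 2.99, 3.41 and 3.48 in labelled GFP-positive cells, against 3.89, 3.84 and 3.42 in labelled GFP-negative cells. ITGB1BP2 had 4.94, 4.78 and 5.01 in labelled GFP-positive cells, against 4.99, 4.97 and 4.90 in labelled GFP-negative cells, and SNX31 had 2.63, 2.85 and 2.93, against 2.91, 2.87 and 2.93 in the same order. The same 3 arrays were thus the lowest for 8 of 9 probe sets, all but SNX31, though for ITGB1BP2 and GPR83 the step to the next array was small. Within the labelled GFP-negative group, replicate 3 was the lowest for 8 of 9 member probe sets, beside 32.6% of all probe sets. The share of all probe sets with the same 3 arrays lowest is not given, so this order is not read as particular to these genes.

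The labelled differences at 24 h were -0.84 for DCAF4L1, -1.03 for GCNA and between -0.77 and -0.04 for the other 7 probe sets, with a median of -0.60, beside 0.0141 over all probe sets. With 1 array left out GCNA ranged from -2.0 to -0.50 and DCAF4L1 from -1.56 to -0.47, farthest from 0 without GFP-positive replicate 3 or GFP-negative replicate 3. In the authors' deposited table for 24 h the direction was the other way: its log2 fold change, GFP-positive over GFP-negative, was 2.48 for GCNA, 1.75 for DCAF4L1, 1.69 and 0.96 for the LSMEM1 probe sets, 1.60 for ALDH8A1, 0.98 for OVGP1 and 0.41 for GPR83. The authors' deposited table gave 0.06 for ITGB1BP2 and -0.02 for SNX31. Since the authors' deposited 24 h means do not match the labelled arrays, no direction at 24 h is drawn here from either.

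Lists chosen with earlier results of these data known held genes related to the members by family, pathway or tissue. These genes were read for their own differences between the sorted populations. Of 197 such genes with a probe set, each read on its brightest, 11 rose and 9 fell in GFP-positive cells at 8 h, beside 2.75% of all probe sets higher and 4.14% lower. At 16 h 7 rose and 4 fell, beside 2.47% higher and 1.97% lower. In either direction 10.2% of the related genes passed at 8 h and 5.58% at 16 h. The shares over all probe sets include dim ones, whereas the related genes were read on their brightest. With the lowest 40% of probe sets left out, 1310 of 32805 rose and 2505 fell at 8 h. At 16 h 1323 of these rose and 1146 fell, so no excess among the related genes is read from the counts. At an unadjusted p under 0.05 there were 43 at 8 h and 42 at 16 h. No related gene passed at 2 h or 24 h in limma; 16 and 3 had an unadjusted p under 0.05, and 4 passed at 2 h with array weights. Genes that did not pass are not thereby shown to be equal. Without the 8 h array whose source name gives 16 h, 11 related genes passed at 8 h in either direction; with all 23 arrays in 1 fit, 7 passed at 8 h and 0 at 16 h.

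Of 40 striated muscle genes, the tissue of ITGB1BP2, 5 rose at 8 h and 4 rose and 1 fell at 16 h, with list medians of 0.06 and -0.02. NEB, the giant thin-filament protein nebulin, was higher by 2.54 at 8 h and 2.87 at 16 h, and ACTA1, skeletal muscle actin, by 2.45 at either time. MYH3, the embryonic myosin heavy chain, had 6.21, 6.20 and 6.24 in GFP-positive cells at 8 h, against 4.86, 4.11 and 4.65 in GFP-negative cells (difference 1.68, SE 0.19, limma adjusted p = 0.000104). At 16 h MYH3 had 6.93, 6.81 and 7.52 in GFP-positive cells, against 5.50, 5.18 and 5.66 in GFP-negative cells (difference 1.64, limma adjusted p = 0.000145). ACTN2, the alpha-actinin of Z discs, rose by 0.81 at 8 h and 0.98 at 16 h, and SGCA, a sarcoglycan, by 0.62 at 8 h, a call lost in 3 of 6 fits with 1 array left out. The 8 h calls of NEB, ACTA1 and SGCA held with all 23 arrays in 1 fit, whereas those of MYH3 and ACTN2 were lost there (adjusted p = 0.0771 and 0.103). TTN, titin, was lower by 0.52 at 16 h (limma adjusted p = 0.0362), a call lost when any 1 array of 16 h was left out. The other muscle genes of the list did not pass.

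In the list of 19 germ cell and SprT genes, the company of GCNA, 1 rose at each time. This was TEX14, a testis protein of the bridges between germ cells, with 6.09, 6.20 and 6.28 in GFP-positive cells at 8 h, against 4.73, 4.44 and 5.02 in GFP-negative cells (difference 1.46, SE 0.21, limma adjusted p = 0.000596). At 16 h TEX14 had 5.94, 6.28 and 7.10 in GFP-positive cells, against 4.96, 4.82 and 4.80 in GFP-negative cells (difference 1.58, limma adjusted p = 0.000397). The groups did not overlap at either time, and with all 23 arrays in 1 fit neither TEX14 call held (adjusted p = 0.135 at 8 h and 0.178 at 16 h). SPRTN, the closest relative of GCNA named here and its counterpart in somatic cells, differed by -0.33 at 8 h and -0.07 at 16 h and did not pass.

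The families of the other members gave small differences. Of 19 DCAF receptors and CUL4 ligase subunits, DCAF7, DCAF16, DCAF1 and DCAF10 fell at 8 h by 0.55, 0.47, 0.38 and 0.35, and DDB2, the damage-recognition subunit, rose by 0.74 at 16 h. Of 6 fits with 1 array left out, the call was lost in 5 for DCAF1, in 4 for DCAF16, in 4 for DCAF10, in 3 for DDB2 and in none for DCAF7. DCAF4 itself, the parent paralogue of DCAF4L1, differed by -0.04 at 8 h and 0.03 at 16 h, with limma adjusted p-values of 0.815 and 0.881. Of 29 sorting nexins, SNX14 (0.53) and SNX5 (0.35) rose and SNX12 (-0.41) and SNX1 (-0.30) fell at 8 h. With replicate number as a block, SNX1 did not pass (limma adjusted p = 0.0615). At 16 h SNX5 rose (0.47) and SNX22 (-0.44) and SNX21 (-0.40) fell. With 1 array left out, the calls of SNX14 at 8 h and SNX5 at 16 h held in all 6 fits, SNX1 was lost in all 6, and SNX5 at 8 h, SNX12, SNX21 and SNX22 were lost in 3 or 4. SNX17 and SNX27, the other FERM-type nexins, differed by -0.26 and -0.14 at 8 h and did not pass.

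Of 18 aldehyde dehydrogenases, ALDH7A1 (0.36) and ALDH3B1 (0.34) rose at 8 h, and of 12 kynurenine pathway genes QPRT (-0.39), which makes the NAD precursor nicotinic acid mononucleotide, fell at 8 h. Of 35 orphan and peptide receptors and the proSAAS gene, GPR63 (-0.55) and GPR161 (-0.32) fell at 8 h and GPR161 (-0.43) at 16 h. Of 11 partners and relatives of melusin, SUGT1 (0.36), a co-chaperone of HSP90, rose at 8 h. None of the 5 uroplakins or of the 9 chitinase family and zona pellucida genes passed at 8 h or 16 h in limma; 2 and 0 of them had an unadjusted p under 0.05 at 8 h, and 0 and 1 at 16 h. With 1 array left out, GPR63 at 8 h and GPR161 at 16 h held in all 6 fits, while QPRT was lost in 5, ALDH3B1 and SUGT1 in 4, and ALDH7A1 and GPR161 at 8 h in 3. With all 23 arrays in 1 fit, DCAF7, SNX14, GPR63 and ALDH3B1 were the calls of these families that held, all at 8 h.

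**Figure D3:**
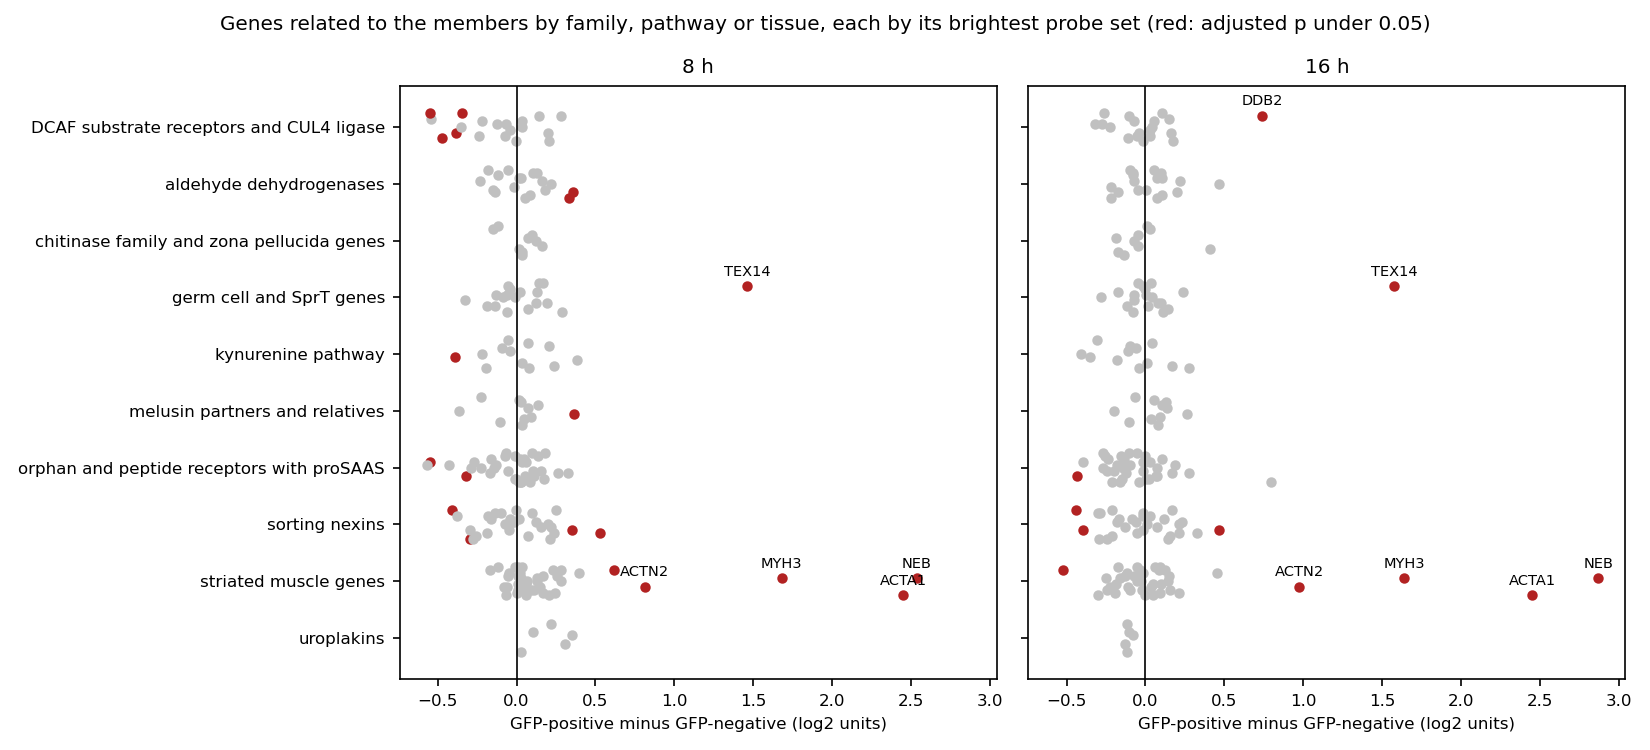
GFP-positive minus GFP-negative difference in log2 units (horizontal axis) of each related gene on its brightest probe set, by list (rows), at 8 h (left panel) and 16 h (right panel); red marks an adjusted p under 0.05 and names stand beside red points beyond 0.7. NEB, ACTA1, MYH3 and TEX14 lie beyond 1.4 at both times, while most points lie within 0.5 of 0.

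CHORDC1, the other human protein with CHORD domains and so the closest relative of melusin, was read differently by its 2 probe sets. The brightest, 218566_s_at, averaged 10.13 ± 0.05 in GFP-positive cells at 8 h and 10.10 ± 0.27 in GFP-negative cells (SD, n = 3 each), and it did not pass at either time. The second, 239436_at, had 5.27, 5.27 and 5.25 in GFP-positive cells at 8 h, against 3.30, 3.22 and 3.28 in GFP-negative cells (difference 2.00, SE 0.15, limma adjusted p = 1.1e-06). At 16 h it had 6.47, 6.73 and 7.32 in GFP-positive cells, against 3.78, 3.53 and 3.54 in GFP-negative cells, a difference of 3.23 (SE 0.15, 9.36-fold, limma adjusted p = 4.39e-09). In treated cells at 2 h it averaged 3.26, against 3.28 in untreated cells. The second probe set was singled out after its values were seen, and which transcripts it reads is not given in the files.

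The nearest genes with a probe set on each side of a member, by RefSeq order, were looked at as a further comparison chosen after values had been seen. These were 16 genes with 40 probe sets. In GFP-positive cells 4 of the 40 rose and 1 fell at 8 h, beside 2.75% of all probe sets higher and 4.14% lower. At 16 h 2 rose and 1 fell, beside 2.47% higher and 1.97% lower. None passed at 2 h in limma (10 of the 40 had an unadjusted p under 0.05). Probe sets of 1 gene are not separate genes. Read on the brightest probe set, 1 of the 16 genes rose and 1 fell at 8 h, and 1 rose and 0 fell at 16 h. The risen probe sets belong to a neighbour of LSMEM1 and a neighbour of ALDH8A1, whereas no probe set of the genes beside GCNA (OGT and CXCR3), DCAF4L1 (TMEM33 and SLC30A9), ITGB1BP2 (NONO and TAF1), SNX31 (ANKRD46 and PABPC1) or OVGP1 (CIMAP3 and WDR77) passed.

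IFRD1, a transcriptional coregulator on the side before LSMEM1, was bright. Its probe set 202146_at had 10.05, 10.13 and 10.16 in GFP-positive cells at 8 h, against 9.39, 9.28 and 9.52 in GFP-negative cells (difference 0.72, SE 0.11, limma adjusted p = 0.00085). At 16 h it had 10.54, 10.54 and 10.92 in GFP-positive cells, against 10.10, 9.91 and 9.95 in GFP-negative cells (difference 0.68, limma adjusted p = 0.0016). The second, 202147_s_at, rose by 0.82 at 8 h and 0.61 at 16 h, and the third, 230048_at, differed by 0.13 and -0.07 and did not pass. On the other side of LSMEM1, TMEM168 on 234726_s_at fell by 0.54 at 16 h, a call lost in 4 of 6 fits with 1 array left out. With all 23 arrays in 1 fit the IFRD1 calls were lost, at adjusted p-values of 0.0549 to 0.218.

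HBS1L, a GTPase of ribosome rescue beside ALDH8A1, was read unequally by its 4 probe sets. On 209315_at it had 7.05, 7.64 and 7.42 in GFP-positive cells at 8 h, against 6.18, 6.35 and 6.52 in GFP-negative cells (difference 1.02, SE 0.22, limma adjusted p = 0.00931). On 240602_at the 8 h difference was 0.95 (SE 0.24, limma adjusted p = 0.0236). Both calls were lost without GFP-positive replicate 2 of 8 h and with all 23 arrays in 1 fit, and that of 240602_at in 4 of 6 fits with 1 array left out. The 2 brighter probe sets, 209316_s_at and 209314_s_at, differed by 0.12 and 0.24 at 8 h and did not pass, and no HBS1L probe set passed at 16 h. Which HBS1L transcripts each probe set reads is not given in the files. At 2 h 209315_at had 7.17, 7.02 and 7.26 in treated cells, against 6.57 and 6.32 in untreated cells, and the difference of 0.70 did not pass (limma adjusted p = 0.278). PANX1, a channel protein beside GPR83, fell by 0.43 at 8 h, a call lost in 4 of 6 fits with 1 array left out, and MRE11 on the other side did not pass.

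**Figure D4:**
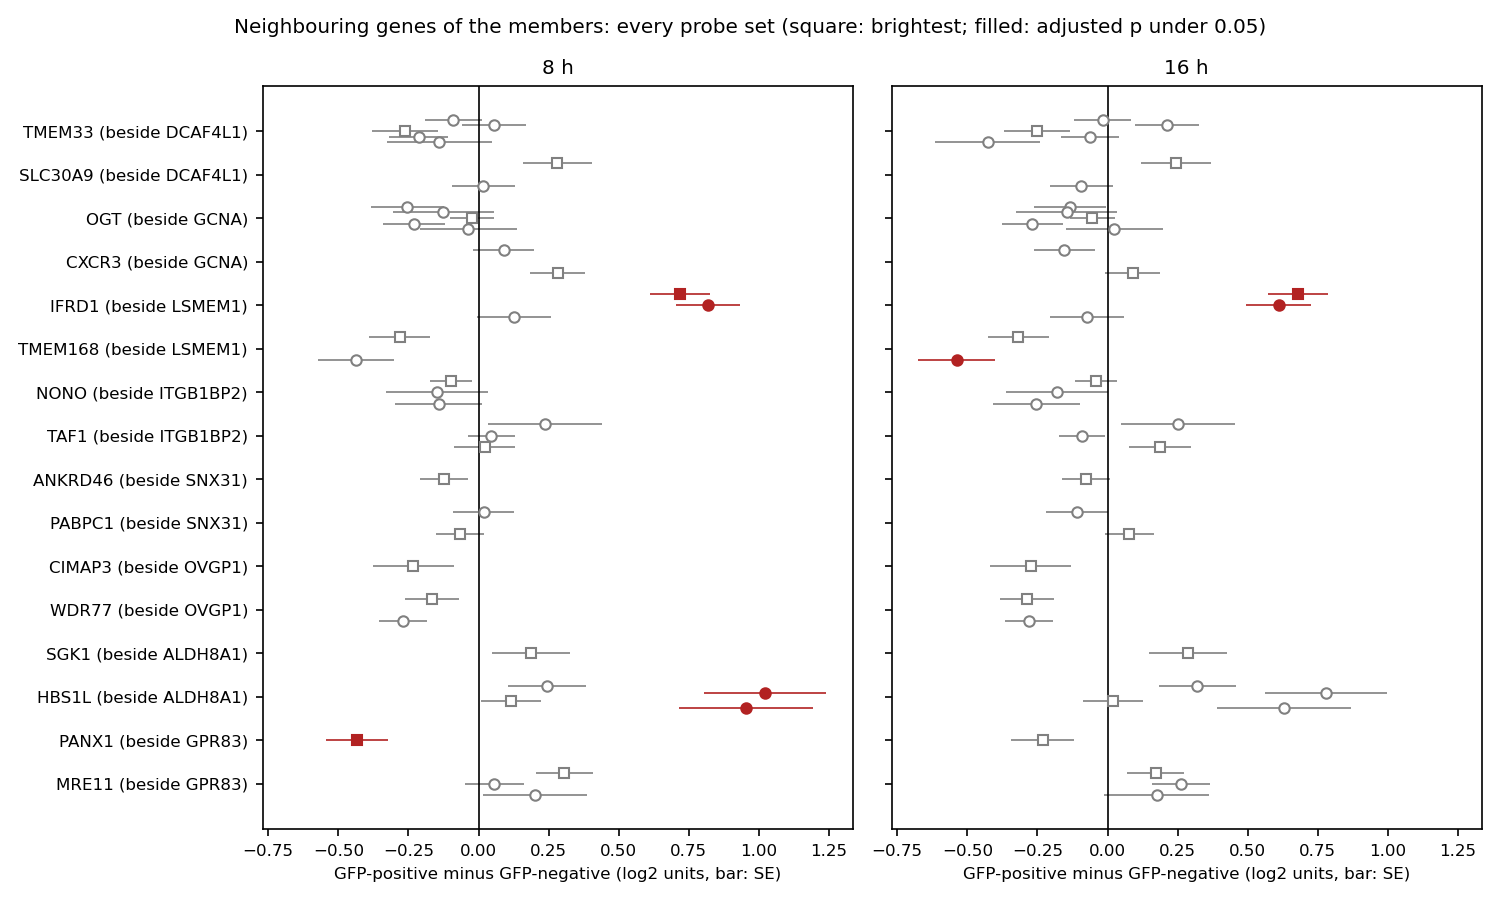
GFP-positive minus GFP-negative difference in log2 units (horizontal axis, bars are SE of the limma fit) of all 40 probe sets of the 16 neighbouring genes (rows) at 8 h (left panel) and 16 h (right panel); squares are each gene's brightest probe set and filled markers have an adjusted p under 0.05. Filled markers right of 0 belong to IFRD1 at both times and to HBS1L at 8 h.

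The probe sets whose profile over the 12 arrays of 8 h and 16 h was most like the mean of the 8 members, by Pearson correlation of values centred within each time, belonged to ELAPOR1 (0.989), IFRD1 (0.988), LOC81691 (0.986), SLC6A13 (0.986) and AOC3 (0.984). RFPL3S (0.982), DNAI4 (0.981), TSGA10 (0.980), RAPGEF2 (0.980) and TEX14 (0.979) followed. These arrays form 2 sorted populations, so any gene with a large difference between them scores high, and 1.13% of all probe sets reached 0.9. The members' own values were 0.978 for GCNA and DCAF4L1, 0.971 for LSMEM1, 0.967 for OVGP1, 0.953 for ALDH8A1, 0.930 for GPR83, 0.831 for ITGB1BP2 and 0.823 for SNX31. Each member is part of the mean it is set against, and the genes were chosen on these arrays. Their high values were therefore fixed in advance. SLC6A13, a GABA transporter, was higher by 1.92 at 8 h and 1.77 at 16 h, AOC3, a vascular amine oxidase, by 1.80 and 1.45, and TSGA10, a sperm protein, by 1.62 and 1.44.

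In every group most of the HEK293 markers stood high, though not all of them. The 10 HEK293 markers had a median percentile of 85.5 to 91.1 per array, 10 haematopoietic markers 33.0 to 45.6 and 10 stromal markers 39.7 to 49.6. By group, 6 or 7 of the 10 HEK293 markers lay in the top quartile. Of the haematopoietic markers 0 of 10 did, and of the stromal markers 0 or 1 of 10. PAX2, a HEK293 marker, averaged 4.75 in GFP-positive cells at 8 h, where the array medians were 4.68 to 4.71. Of the HEK293 markers, NEFL fell at 2 h, 8 h and 16 h, ENO2 at 8 h and 16 h and GATA3 at 2 h, and the summed log2 level of the 10 was 79.5 to 80.4 in GFP-positive cells at 8 h, against 81.4 to 81.9 in GFP-negative cells. At 2 h the sum was 84.8 to 85.9 in treated cells, against 86.8 to 87.1 in untreated cells, and the part of this shift in the members' differences was not tested. Of the other markers, ACTA2 rose at 16 h (0.60). At 8 h 1501 probe sets rose and 2266 fell over the whole array; with quantile normalization the split was 1933 to 1899 and with median centring 1358 to 2830. At 16 h the split was 1348 risen to 1079 fallen, 1682 to 804 with quantile normalization and 1816 to 624 with median centring. At 2 h it was 116 to 182.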

How the data were processed

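The deposited matrix holds log2 expression per array and probe set, made by the authors with RMA per the submitters' processing notes (R 2.11.1 for 2 h, 8 h and 16 h, and R 2.9.0 for 24 h). The authors' deposited tables hold group means and a log2 fold change, a posterior score and a fold column; the fold column was not used, and the score is not interpreted here. RNA of 24 h was extracted with Trizol alone and other RNA with Trizol and a column, per the labels' protocols. RMA is known to compress the folds of dim probe sets. The number of arrays limits the precision.

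Group means of all 54675 probe sets came from lmFit and eBayes of limma 3.58.1 (R 4.3.3), with no filter and Benjamini-Hochberg adjustment over all of them, at a threshold of 0.05. The 17 arrays of 2 h, 8 h and 16 h shared 1 fit, and the 6 of 24 h had their own. Percentiles are within an array. Members, lists, the 17-array fit and the tests were chosen with earlier results of these data known. Named were all member probe sets, up to 4 passing genes per list and time by smallest p, the 10 most similar genes and fixed closest relatives; neighbours were added later. Symbols were updated through RefSeq, and 12958 probe sets had none. The fit was tested on simulated data. Same-numbered arrays deviated together at 8 h (correlation of deviations from group means 0.240 to 0.325 over 3 pairs), above all other pairs (-0.272 to 0.0377). At 16 h the same-numbered pairs (0.0913 to 0.443) overlapped the others (-0.409 to 0.13), though each was the highest for its GFP-positive array. Pairing is thus not settled at 16 h. At 2 h (-0.109 to -0.0475) the 2 untreated arrays deviate by equal and opposite amounts, so the check says little. Same-numbered arrays did not deviate together at 24 h (-0.360 to -0.0569). The main fit has no term for the replicate number. With a replicate block, 5123 probe sets passed at 8 h, against 3767 in the main fit. Alternatives were all 23 arrays in 1 fit, each time alone, quantile normalization, median centring, no dim probe sets (lowest 40%), array weights, a replicate block and each array left out.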

Additional observations from a re-analysis of the deposited data

How the results depend on the processing

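The members' differences at 2 h, 8 h and 16 h kept their sign under every setting run except ITGB1BP2 at 2 h, which was 0.0361 with the replicate block and ranged from -0.151 to 0.0361 with 1 array left out, SNX31 at 2 h (-0.0022 to 0.115 with 1 array left out) and LSMEM1 on 1569852_at at 2 h, which was 0 without treated replicate 2, where the other 4 arrays have equal values. At 24 h the signs held with 1 array left out except for ITGB1BP2 (-0.0922 to 0.024), while the sizes moved by over 1.5 times, as for LSMEM1 on 239203_at (-1.48 to -0.31), OVGP1 (-1.26 to -0.40) and ALDH8A1 (-1.20 to -0.25). The member calls at 2 h (3) became 0 with all 23 arrays, 0 with the 2 h arrays alone, 1 with the replicate block and 0 to 2 with 1 array left out. OVGP1 at 8 h was 1.06 with quantile normalization. Over all probe sets, calls at 2 h (298) were 107 with all 23 arrays, 0 with the time alone, 1594 with array weights and 27 to 297 with 1 array left out; at 8 h (3767) 1166, 1842 and, with 1 array left out, 2025 to 3308; at 16 h (2427) 33, 684, 3682 with the replicate block and 1182 to 2402 with 1 array left out. Related genes called at 2 h (0) were 4 with array weights and 0 to 2 with 1 array left out, at 8 h (20) 7 with all 23 arrays, 7 with the time alone and 11 to 17 with 1 array left out, and at 16 h (11) 0, 6, 18 with each gene's smallest-p probe set and 8 to 13 with 1 array left out. With the replicate block, of the related genes and neighbours named as called, only SNX1 lost its call. At 24 h every setting gave 0. The causes were not tested. Probe sets near the bottom of the arrays (SNX31 and GPR83) are limited by signal over background.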

Other observations

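Over the 17 arrays of 2 h, 8 h and 16 h, deviations from the group mean of the 8 members (1 probe set each) correlated positively in 23 of 28 gene pairs, with a median Pearson r of 0.37 and a range of -0.23 to 0.88. The highest was DCAF4L1 with GPR83 (0.88). The genes are read from the same arrays, and GFP-positive replicate 3 of 16 h was highest for every member probe set, so the values are a description without a test. No such count over other probe sets is given, so the positive pairs are not read as particular to these genes. On the labelled GFP-positive arrays of 24 h, replicate 3 was likewise the highest for 9 of 9 member probe sets, beside 34.3% of all probe sets. In treated cells of 2 h, replicate 1 was the highest for 7 of 9, beside 47.8% of all probe sets.

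GPR19, an orphan receptor of the list around GPR83, averaged 4.47 ± 0.71 in GFP-positive cells at 16 h and 3.68 ± 0.24 in GFP-negative cells (SD, n = 3 each), and its difference of 0.79 did not pass (limma adjusted p = 0.0579); it was singled out after its value was seen. The difference between the 16 h and 8 h effects was called for 1 of 54675 probe sets in limma (4857 at an unadjusted p under 0.05) and for 0 of 517 probe sets of related, neighbouring and marker genes (40 unadjusted).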
